A study of Homo sapiens with 6 samples.

Results

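The serine/arginine-rich (SR) proteins, the heterogeneous nuclear ribonucleoproteins (hnRNPs) and the SF3A and SF3B subunits of splicing factor 3 were examined in cells depleted of NELFCD, a subunit of the negative elongation factor. The genes were the protein-coding rows of the deposited count table whose symbol starts with SRSF, HNRNP, SF3A or SF3B. There were 48 of them among 58735 rows, with 12 SRSF, 27 HNRNP, 3 SF3A and 6 SF3B genes. The cells were Mum-2b, a human uveal melanoma line. Control cells carried the genotype label WT (titles NC1 to NC3, n = 3 libraries), and knockdown cells the label NELFCD_knockdown (titles shRNA1_1 to shRNA1_3, n = 3 libraries). The knockdown titles name 1 hairpin, so loss of NELFCD and any other effect of that hairpin cannot be told apart. RNA was extracted with either of a pair of kits, TRNzol Universal or Quick-RNA MiniPrep, and which library had which is not given in the sources used here. Replicate 1 of both groups stood apart from replicates 2 and 3 in most of these genes, so results are given with and without it.

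Pre-mRNA splicing removes introns in the spliceosome, and these families set where it assembles. SR proteins bind exons through RNA recognition motifs and recruit spliceosomal particles through a domain rich in arginine and serine. Many hnRNPs bind introns or silencer elements and oppose exon use, and others package nascent RNA or act in export, stability and translation. SF3A and SF3B belong to the U2 small nuclear ribonucleoprotein (snRNP), which recognises the branch point. SF3B1 and SRSF2 are recurrently mutated in uveal melanoma, and gene counts do not show mutations or splice choice. NELF, of which NELFCD is a part, holds RNA polymerase II in a pause shortly after the start of transcription.

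In the knockdown the estimated log2 fold changes of these genes lay between -0.35 (HNRNPUL2) and 0.18 (SF3B6), in a model that holds the replicate number. In it, 2 of the 42 genes that passed the filter on low counts fell, HNRNPA0 and HNRNPR, and 0 rose. They were left at 85.5% and 86.6% of their control means. The 2 falls are 4.76% of the 42 genes, where 13.5% of all 14844 genes tested were called in the same fit (5.48% rose and 8.01% fell). Of all genes 813 rose and 1189 fell in that fit, and upper-quartile scaling turned the balance to 1198 and 986. Without the replicate number edgeR called 0 of the 42 genes and 0% of all genes, with 0 of the 42 and 954 of all genes at an unadjusted p under 0.05, and DESeq2 also called 0 of the 42. In replicates 2 and 3 alone edgeR called 11 of the 42, 2 higher and 9 lower, and 25.3% of all genes. The promoter stretches of the pair that fell are shown as description only. These stretches lie upstream of the region after the start site where NELF acts. They come from RefSeq (GRCh38.p14), run 5′ to 3′ on the gene's minus strand, and stop before the first base of an annotated exon. The HNRNPA0 stretch is chr5:137754377-137754613 and that of HNRNPR chr1:23344337-23344534. Capitals mark matches to the GC box (GGGCGG) and the CCAAT box, which reads ATTGG on the other strand.
HNRNPA0: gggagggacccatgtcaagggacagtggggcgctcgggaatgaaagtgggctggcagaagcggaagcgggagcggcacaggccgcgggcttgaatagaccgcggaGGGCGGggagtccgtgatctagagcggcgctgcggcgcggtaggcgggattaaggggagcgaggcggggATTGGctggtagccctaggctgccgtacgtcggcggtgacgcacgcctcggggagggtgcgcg
HNRNPR: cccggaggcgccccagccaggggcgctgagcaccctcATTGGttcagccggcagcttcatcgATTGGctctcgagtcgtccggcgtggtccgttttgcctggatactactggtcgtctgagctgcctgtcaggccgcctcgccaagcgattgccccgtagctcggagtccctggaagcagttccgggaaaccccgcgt

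Among the 38 tested members with a RefSeq promoter entry, the 250 bases before the start site had a median GC content of 64.4%, against 65.2% over 9685 tested protein-coding genes. HNRNPA1, HNRNPA1P48, HNRNPCL3, SF3B3 and SRSF2 were not matched. A total of 7 motifs were searched on both strands, none of which contains another. CCAAT occurred in 42.1% of member windows and 33.0% of all 27305 RefSeq windows of that length, GGGCGG in 65.8% and 42.3%, CCGGAAG (an ETS site) in 28.9% and 8.82%, and CACGTG (an E-box) in 18.4% and 6.49%. TATAAA occurred in 13.2% and 11.1%, a longer palindrome centred on CGCG in 5.26% and 0.41%, and the NRF1 motif in 0% and 1.13%. Over the tested protein-coding genes, whose promoters are a closer background, the shares were 34.9%, 68.0%, 16.3%, 8.89%, 5.07%, 0.857% and 2.01% in the same order. These matches are descriptions of letters and were not tested.

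Libraries held 14306733 to 16656630 counts. Levels are given as counts scaled to library size (CPM), always in the order of replicates 1, 2 and 3. NELFCD had 65.5, 88.3 and 83.6 CPM in the controls and 20.7, 37.4 and 40.3 CPM in the knockdowns. The groups did not overlap, and 41.5% of the control mean was left (exact two-sided permutation p = 0.1, the lowest p possible with 3 libraries a group). By edgeR its log2 fold change was -1.30 with the replicate number (adjusted p = 0.00046) and -1.27 without it (adjusted p = 0.53). Replicate 1 of both groups stood apart from replicates 2 and 3. All 18 DNA replication genes examined were lower in replicate 1, by a median of 1.78 on the log2 scale, beside 7162 of all 14844 genes tested. The summed level of the 18 genes was 1234 to 3620 CPM over the controls and 878 to 3233 CPM over the knockdowns. Of 8 melanocyte lineage markers 3 passed the filter on low counts, their summed level was 7.50 to 18.3 CPM, and TYR was at 0 in 5 libraries. Summed levels were at most 2.05 CPM for 6 fibroblast and 0.991 CPM for 4 leukocyte markers. KRT18 carried the epithelial list, whose sum was 235 to 433 CPM in controls and 401 to 561 CPM in knockdowns, and CDH5 carried the endothelial list, 125.5 to 165.5 and 54.3 to 57.7 CPM. Their part in the results was not tested.

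The 48 genes divided into 42 that were tested and 6 at or near 0. HNRNPCL1 to HNRNPCL4, relatives of HNRNPC, had 0 counts in every library. SRSF12 had 3 counts, all in knockdown replicate 1, and the read-through transcript gene HNRNPUL2-BSCL2 had 1 in control replicate 1 and 2 in knockdown replicate 2. The 42 tested genes had 105 to 25771 counts per library. All 48 genes together took 0.889% to 1.49% of the scaled library size used for CPM. Their deposited lengths equalled the union of all annotated exons in GENCODE release 29, so FPKM, which divides counts by that length and by depth, understates genes with long alternative exons or retained introns. On the FPKM scale, as a mean over the 6 libraries, HNRNPA1, which binds exonic silencers, was highest at 228. It was followed by HNRNPK at 169, HNRNPAB at 152, SF3B5 at 149 and HNRNPA2B1 at 142. The range over libraries of each overlapped that of its neighbour in this order, and the position of HNRNPA1 rests on a gene with many near-identical copies. SRSF2 (58.0) and SRSF5 (51.3) led the SR genes, SF3A2 (49.2) led SF3A, and HNRNPLL was lowest of all at 4.37. The whole set is drawn by library in the plot of CPM per gene.

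**Figure D1:**
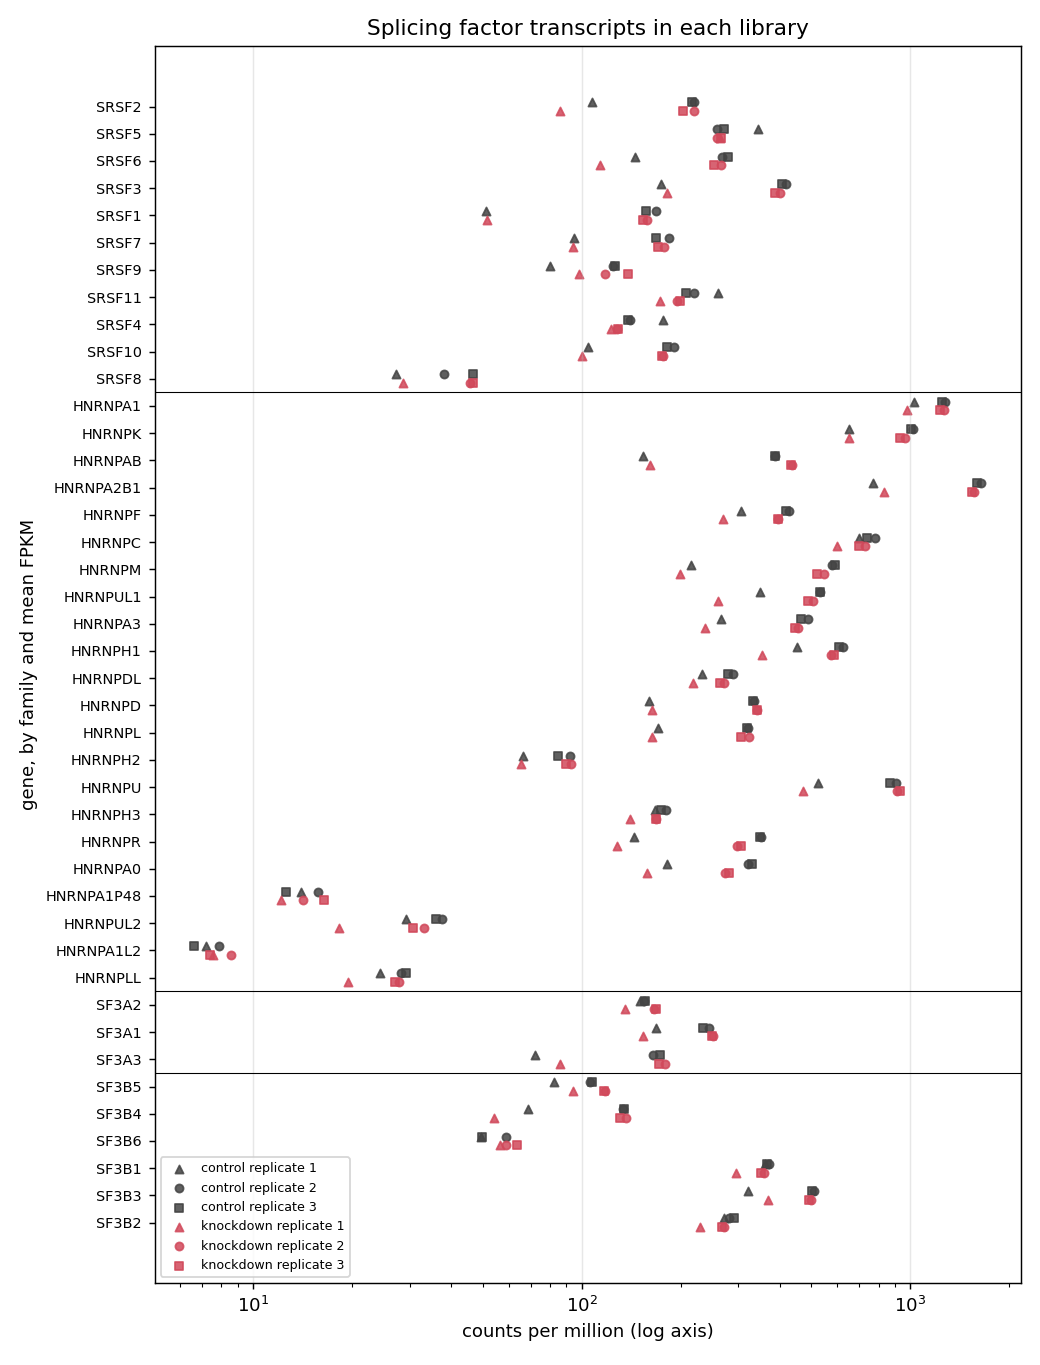
Level of each of the 42 tested splicing factor genes in every library, in CPM on a log axis, with genes grouped by family and ordered by mean FPKM. Dark grey points are control and red points knockdown libraries. Triangles mark replicate 1, which lies to the left of replicates 2 and 3 for most genes, and within a replicate number grey and red points lie close together.

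HNRNPA0 and HNRNPR were the genes that fell. HNRNPA0 (ENSG00000177733, chromosome 5, 137745651 to 137754376, minus strand, hg38) encodes an hnRNP that binds AU-rich elements of messenger RNAs. It had 182, 322 and 329.9 CPM in the controls and 158, 273 and 282 CPM in the knockdowns. Each knockdown library lay below its same-numbered control, while the groups overlapped because control replicate 1 was low. Group means were 278 ± 83.4 and 238 ± 69.0 CPM (SD, n = 3). The log2 fold change with the replicate number was -0.22 ± 0.056 (SE; adjusted p = 0.033 in edgeR's quasi-likelihood test, 95% interval -0.35 to -0.096).

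HNRNPR (ENSG00000125944, chromosome 1, 23303771 to 23344336, minus strand, hg38) encodes an RNA-binding protein with roles in mRNA processing and transport in neurons. The controls had 145, 350.2 and 349 CPM of it and the knockdowns 129, 296 and 306 CPM. Here too each pair went down and the groups overlapped through replicate 1. Without the replicate number and without knockdown replicate 1 the log2 fold change turned to 0.096, the only positive value among 24 alternatives. The log2 fold change was -0.20 ± 0.056 (SE; adjusted p = 0.048 in edgeR with the replicate number, 95% interval -0.33 to -0.073). Both calls were lost in edgeR without the replicate number (adjusted p = 1 for each). With it, they were lost without pair 2 (adjusted p = 0.25 for HNRNPA0 and 0.34 for HNRNPR) and without pair 3 (0.24 and 0.28). DESeq2 (0.074 and 0.12), upper-quartile scaling (0.067 and 0.1) and limma on log2(FPKM + 1) (0.064 and 0.076) did not call them either. In replicates 2 and 3 alone their adjusted p was 6.4e-07 and 2.2e-06, a test that rests on the small spread between those libraries. Among 24 alternative settings HNRNPA0 had adjusted p-values of 7.3e-12 to 1 and HNRNPR of 9.5e-11 to 1.

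The other hnRNP genes were not called in that fit. The called pair is 9.09% of the 22 tested, beside 13.5% of all genes. Of 22 tested, 17 had a negative and 5 a positive log2 fold change with the replicate number, with a median of -0.097 beside 0.00010 over all genes tested. At an unadjusted p under 0.05 there were 9 of the 22, the called pair included, and 4523 of all 14844 genes. In all 3 pairs 14 of the 22 were lower in the knockdown and 3 higher, beside 3990 and 3839 of all genes. Among the 4564 genes with a mean of at least 50 CPM, a background chosen after the data were seen, they were 1717 and 1219. The median log2 fold change of that background was -0.032. Over all 42 members the counts were 22 and 6, with 6 and 1 of 11 SR, 0 and 0 of 3 SF3A and 2 and 2 of 6 SF3B genes. HNRNPA1 was at 1022, 1271 and 1246 CPM in controls and 979.8, 1264 and 1232 CPM in knockdowns, which is 98.2% of the control mean. HNRNPK, a poly(C)-binding protein, was at 653, 1018 and 1001 CPM in controls and 649, 962 and 929 CPM in knockdowns. In both genes replicate 1 was low in both groups, and the groups overlapped. The intervals of their log2 fold changes were -0.15 to 0.094 for HNRNPA1 and -0.19 to 0.060 for HNRNPK. HNRNPA2B1, a close relative of HNRNPA1, differed by -0.0029 (95% interval -0.14 to 0.13). The most negative value was that of HNRNPUL2 (-0.35, adjusted p = 0.067), with 44.1% of its exon bases shared with HNRNPUL2-BSCL2. The most positive was that of HNRNPAB (0.14, adjusted p = 0.14).

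No SR gene was called among the 11 tested in edgeR with the replicate number, where 13.5% of all genes were called. At an unadjusted p under 0.05 there were 2 of the 11, and 4523 of all 14844 genes. Of the 11, 9 had a negative log2 fold change, with a median of -0.077. DESeq2 and limma-voom with the replicate number left them uncalled as well, where they called 1346 and 2110 of all 14844 genes. Over 11 fits that held the replicate number or dropped replicate 1, SRSF11 was called in 4 (lowest adjusted p 0.0015), SRSF4 in 3 (lowest 0.0058) and the other 9 tested SR genes in 0. SRSF2, which promotes exon inclusion, was at 108, 220.4 and 217 CPM in controls and 85.9, 219.7 and 203 CPM in knockdowns. The groups overlapped, replicate 1 was low in both, and the log2 fold change was -0.14 (95% interval -0.30 to 0.027). Of its exon bases 36.7% are shared, chiefly with MFSD11. SRSF5 was at 344, 259 and 272 CPM in controls and 264, 258 and 266 CPM in knockdowns, so only control replicate 1 stood out among its 6 libraries, and on the high side. SRSF3, which regulates the splicing of its own transcript, differed by -0.026 (95% interval -0.16 to 0.11), and SRSF1, a regulator of splice site choice, by -0.041 (95% interval -0.18 to 0.098). SRSF1 shares 60.7% of its exon bases and SRSF9 46.2% with neighbouring genes.

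SRSF11 and SRSF4 had the most negative values of the SR genes and were 2 of the 4 tested members whose groups did not overlap. SRSF11 was at 260, 219 and 207 CPM in controls and 174, 195 and 199 CPM in knockdowns. SRSF4, a large SR protein, was at 176, 141 and 138 CPM in controls and 123, 128 and 129 CPM in knockdowns. For both, most of the difference came from pair 1, with log2 differences of -0.58 in pair 1 against -0.17 and -0.060 in pairs 2 and 3 for SRSF11. For SRSF4 they were -0.52 against -0.14 and -0.097. Their log2 fold changes of -0.27 and -0.25 did not pass in edgeR with the replicate number (adjusted p = 0.094 and 0.089). Groups that did not overlap were found for 9.52% of the 42 genes and 14.9% of all genes tested. SF3B1 and SF3B2 were the other members.

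Of the 9 SF3A and SF3B genes edgeR with the replicate number called 0, beside 13.5% of all genes. At an unadjusted p under 0.05 there was 1 of the 9, and 4523 of all 14844 genes. DESeq2 and limma-voom with the replicate number called 0 of the 9. In replicates 2 and 3 alone SF3B5 was called, where 25.3% of all genes were called. SF3B1, the scaffold that holds the branch point, was at 361, 371 and 366 CPM in controls and 296, 359 and 350.4 CPM in knockdowns (ENSG00000115524, chromosome 2, 197389784 to 197435091). All 3 knockdown values lay under all 3 control values, with replicate 1 lowest. Its log2 fold change was -0.13 (95% interval -0.28 to 0.017, adjusted p = 0.21 in edgeR with the replicate number). SF3B2 likewise had every knockdown library below every control library, with a log2 fold change of -0.14 (adjusted p = 0.16). SF3B5, a small subunit of the same complex, was at 82.6, 106 and 107 CPM in controls and 94.2, 118 and 117 CPM in knockdowns. It was higher in each pair, the groups overlapped, and the log2 fold change was 0.15 (95% interval 0.017 to 0.29, adjusted p = 0.12).

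SF3B4, which contacts the pre-mRNA upstream of the branch point, was at 68.7, 134 and 134 CPM in controls and 54.2, 137 and 131 CPM in knockdowns. SF3A1, the largest SF3A subunit, was at 168, 244 and 235 CPM in controls and 154, 251 and 249.5 CPM in knockdowns. SF3A2 was at 151, 155 and 156 CPM in controls and 136, 166 and 168 CPM in knockdowns. In SF3A1 and SF3A2 pair 1 went down and pairs 2 and 3 went up, so their fold changes near 0 (0.0030 and 0.019) changed sign under several settings. SF3A3, the remaining SF3A subunit, differed by 0.12 (95% interval -0.038 to 0.27). The log2 fold changes of the 6 SF3B genes ran from -0.14 for SF3B2 to 0.18 for SF3B6.

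The intervals describe each gene under the fit used, and the labels do not give the pairing that this fit takes. They leave out the choice of scaling. With the replicate number, upper-quartile scaling moved the members' median log2 fold change from -0.071 to -0.024. In the fit with the replicate number the 95% intervals of all 42 tested members lay within a 2-fold change in either direction, and those of 41 within 1.5-fold. HNRNPUL2 was the exception, with a lower bound of -0.60 on the log2 scale. Over all genes tested 8884 of 14844 intervals lay within 1.5-fold, and members are abundant, with a median SE of 0.064 against 0.109. Among the 4564 genes with a mean of at least 50 CPM, a background chosen after the data were seen, 19.6% were called in either direction and 12.8% fell. Without the replicate number 31 of the 42 intervals lay within 2-fold and the median SE was 0.249. The forest of intervals is shown in the plot of fold changes per gene.

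**Figure D2:**
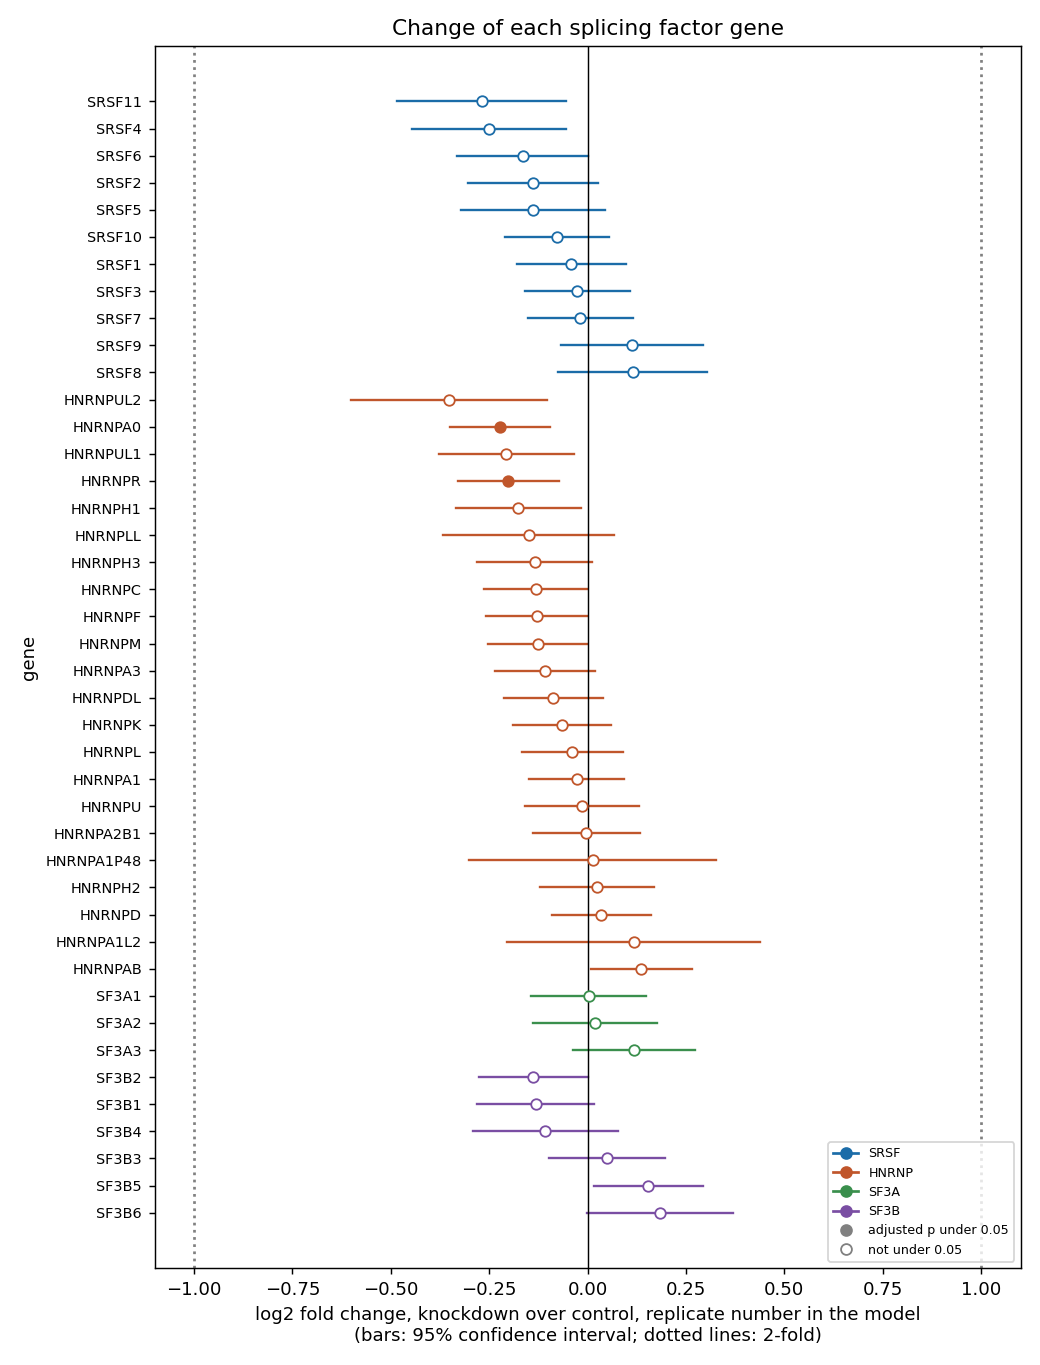
Log2 fold change of each tested splicing factor gene, knockdown over control, from edgeR with the replicate number in the model, with 95% confidence intervals as bars and dotted lines at 2-fold. Filled points passed an adjusted p of 0.05 (HNRNPA0 and HNRNPR). All 42 intervals lie between the dotted lines.

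Summed over families, differences within pairs were small beside the gap between replicate 1 and the others. The SR genes together were at 1566, 2232 and 2202 CPM in controls and 1316, 2144 and 2121 CPM in knockdowns. The hnRNP genes together were at 6601, 10630 and 10390 CPM in controls and 6101, 10180 and 10030 CPM in knockdowns. Replicate 1 was the lowest library of each group, and the groups overlapped in both families. Within pairs 1 to 3 the log2 differences were -0.25, -0.058 and -0.054 for the SR genes and -0.11, -0.062 and -0.050 for the hnRNP genes, lower in every pair. SF3A genes summed to 391, 564 and 564 CPM in controls and 376, 597 and 589.9 CPM in knockdowns, and SF3B genes to 1152, 1460 and 1450 CPM in controls and 1098, 1443 and 1421 CPM in knockdowns. Within pairs the SF3B sum was lower by a little each time (-0.069, -0.016 and -0.029), and the SF3A sum was lower in pair 1 and higher in pairs 2 and 3 (-0.057, 0.081 and 0.065). These sums were not tested. In these bulk libraries fewer cells that express a gene and less RNA per cell cannot be told apart.

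Without replicate 1 the small differences became more often callable. In replicates 2 and 3 alone HNRNPAB (log2 fold change 0.16) and SF3B5 (0.14) rose in edgeR's test at an adjusted p under 0.05. HNRNPA0 (-0.24), HNRNPR (-0.22), HNRNPM (-0.14), SRSF11 (-0.11), HNRNPF (-0.10), HNRNPUL1 (-0.099), HNRNPK (-0.095), HNRNPC (-0.087) and HNRNPH1 (-0.087) fell. The 11 called members are 26.2% of the 42, beside 25.3% of all genes and 42% of the 4564 genes with a mean of at least 50 CPM. Log2 fold changes of the 42 members ran from -0.24 to 0.18 in that fit. Without pair 1 but with the replicate number in the model edgeR called 17 of the 42 members, 14 of them lower. In that fit 4090 of all 14836 genes tested were called, 2213 of them lower.

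Replicate 1 differed from replicates 2 and 3 far more than knockdown from control. Of the 42 members 39 were lower in replicate 1 in both groups, against 40.2% of all genes tested. The median over the members was -0.58 on the log2 scale (0.029 over all genes tested). Members are abundant, and abundant genes were more often lower in replicate 1. Among the 4564 genes with a mean of at least 50 CPM, 2785 were lower on average over both groups. Their median was -0.15. SRSF1 was at 51.3 CPM in control replicate 1 against 168 and 157 CPM in replicates 2 and 3, and at 51.5 against 158 and 154 CPM in the knockdown. HNRNPM was at 215 against 579 and 589.9 CPM in the control and at 199 against 544 and 521 CPM in the knockdown. In all, 10 of the 42 members (23.8%, and 5.51% of all genes) were lower by more than 1 on the log2 scale on average over both groups. Beside SRSF1 and HNRNPM these were HNRNPAB, HNRNPR, HNRNPD, SRSF2, SRSF3, SRSF6, SF3A3 and SF3B4.

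SRSF4, SRSF5 and SRSF11 were the exceptions to that pattern. They were higher in control replicate 1 than in control replicates 2 and 3, by 0.34, 0.37 and 0.28 on the log2 scale, and in knockdown replicate 1 they differed by -0.061, 0.0080 and -0.18. In SR genes pair 1 also departed from the other pairs. The knockdown was lower by more than 0.3 on the log2 scale in pair 1 for 5 of 11 SR genes (SRSF2, SRSF4, SRSF5, SRSF6 and SRSF11), and for 0 of 11 in pair 2 and in pair 3. Over all genes tested 22.2% were that much lower in pair 1, 15% in pair 2 and 14.5% in pair 3. Over all members the counts were 10, 0 and 0 of 42. With 1 library of each group in pair 1 this difference between pairs was not tested.

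**Figure D3:**
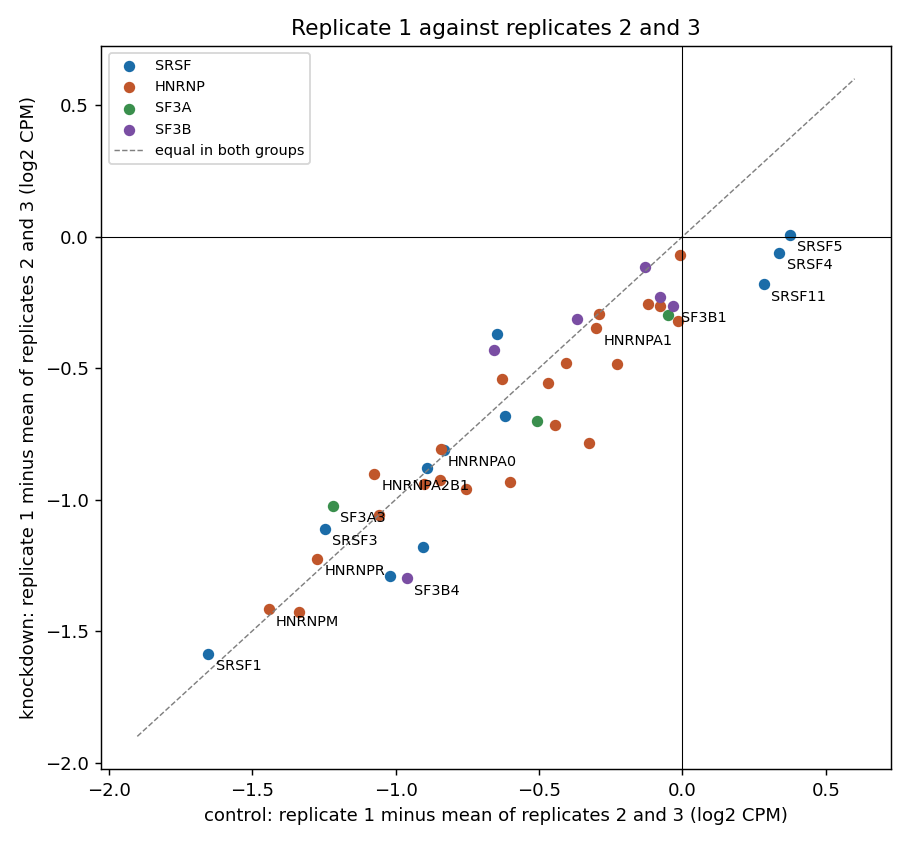
Log2 CPM of replicate 1 minus the mean of replicates 2 and 3 for each tested splicing factor gene, in control (x axis) and knockdown libraries (y axis), coloured by family. Most genes lie near the dashed line of equal values at the lower left, and SRSF4, SRSF5 and SRSF11 lie to the right, above 0 in the control.

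Of 143 genes of the wider splicing machinery in 9 lists 140 were tested. With the replicate number 2 rose and 4 fell in edgeR, where 13.5% of all genes were called, and the median was -0.042. In replicates 2 and 3 alone 13 rose and 14 fell, where 25.3% of all genes were called. With the replicate number but without pair 1, 35 of the 140 were called, and 4090 of all 14836 genes tested. The largest difference was that of SRPK2, a kinase that phosphorylates the arginine/serine domains of SR proteins. It was at 38.3, 33.8 and 29.1 CPM in controls and 17.8, 20.7 and 21.3 CPM in knockdowns, and the groups did not overlap. Its log2 fold change was -0.75 ± 0.12 (SE; adjusted p = 0.0074 in edgeR with the replicate number, 0.53 without it). It was 1 of 9 kinase and import genes called, and SRPK1, its more abundant relative, was at 0.017 (95% interval -0.13 to 0.16). PRPF4B, a further kinase of this list, was at -0.14 and was not called.

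SMG6, the endonuclease of nonsense-mediated decay, fell as well. It was at 42.9, 42.3 and 44.2 CPM in controls and 31.3, 33.3 and 30.0 CPM in knockdowns, with all 3 knockdown libraries below every control library. The log2 fold change was -0.45 ± 0.081 (SE; adjusted p = 0.0096 in edgeR with the replicate number, 0.58 without it). The other 9 of 10 decay genes were not called, among them SMG1 (-0.043) and SMG5 (-0.022). With the replicate number edgeR called 13.5% of all genes. DESeq2 without the replicate number called SRPK2 (adjusted p = 0.013) and SMG6 (0.038). Each also passed in 10 of 11 fits that carried the replicate number or dropped both replicate 1 libraries, with largest adjusted p of 0.053 and 0.060. These fits reuse the same libraries and are not independent. Among fits without the replicate number, only DESeq2 and the fit without both replicate 1 libraries called SRPK2 and SMG6.

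Among 17 U4/U6.U5 tri-snRNP genes 2 rose and 1 fell with the replicate number in edgeR's model. Of all genes 5.48% rose and 8.01% fell in it. TXNL4A, a small U5 protein, rose by 0.37 on the log2 scale, from 28.6, 50.2 and 52.8 CPM in controls to 39.4, 67.0 and 62.1 CPM in knockdowns (adjusted p = 0.017). PRPF4, a U4/U6 protein, rose by 0.25 (adjusted p = 0.034), and SART3, which recycles U4/U6, fell by 0.23 (adjusted p = 0.049). PRPF8 (-0.13) and SNRNP200 (-0.084), the core U5 factors, were not called. TARDBP, encoding the RNA-binding protein TDP-43, fell by 0.23 (adjusted p = 0.037) as 1 of 32 other regulators tested, where PTBP1 (-0.085) and NONO (-0.11) were not called. In edgeR without the replicate number the adjusted p of these 4 genes was 1. With it, TXNL4A was lost without pair 2 (0.12). PRPF4, SART3 and TARDBP were lost without pair 2 (0.18, 0.16 and 0.17), without pair 3 (0.12, 0.20 and 0.23) and in DESeq2 (0.11, 0.15 and 0.10). Upper-quartile scaling lost SART3 (0.080) and TARDBP (0.066), and limma on log2(FPKM + 1) lost TXNL4A, PRPF4, SART3 and TARDBP (0.063, 0.077, 0.094 and 0.070). Without the replicate number and without control replicate 1 the log2 fold change of PRPF4 turned to -0.067.

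In the remaining lists edgeR with the replicate number called 0 genes. These were 6 U1 genes, 15 Sm and LSm genes, 14 U2 and branch site genes, 20 genes of the activation complex and step helicases and 17 SR-related and exon junction genes, with 0, 1, 2, 4 and 3 genes at an unadjusted p under 0.05. Of all 14844 genes 13.5% were called in that fit and 4523 had an unadjusted p under 0.05. In replicates 2 and 3 alone 0, 1, 3, 2 and 4 were called, beside 25.3% of all genes. The list medians with the replicate number were -0.068, 0.017, -0.037, -0.0070 and -0.071, beside 0.00010 over all genes tested. SNRNP70 (-0.096), LUC7L3 (-0.083), SNRPB (0.017), SNRPD2 (0.14), U2SURP (-0.10), SF1 (-0.11), PRPF19 (0.20) and DHX38 (-0.10) were the most abundant uncalled genes of the first 4 of these lists, and SRRM2 (-0.28, adjusted p = 0.081) and SON (-0.15) those of the last. For comparison, 8 of 18 DNA replication genes fell in edgeR with the replicate number and their median was -0.27, where 8.01% of all genes fell. Of the 140 wider splicing genes 121 were lower in replicate 1, with a median of -0.41. Of all 14844 genes 7162 were lower, with a median of 0.029. Among the 4564 genes with a mean of at least 50 CPM, 2785 were lower, with a median of -0.15. The lists are set side by side in the plot of fold changes by list.

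**Figure D4:**
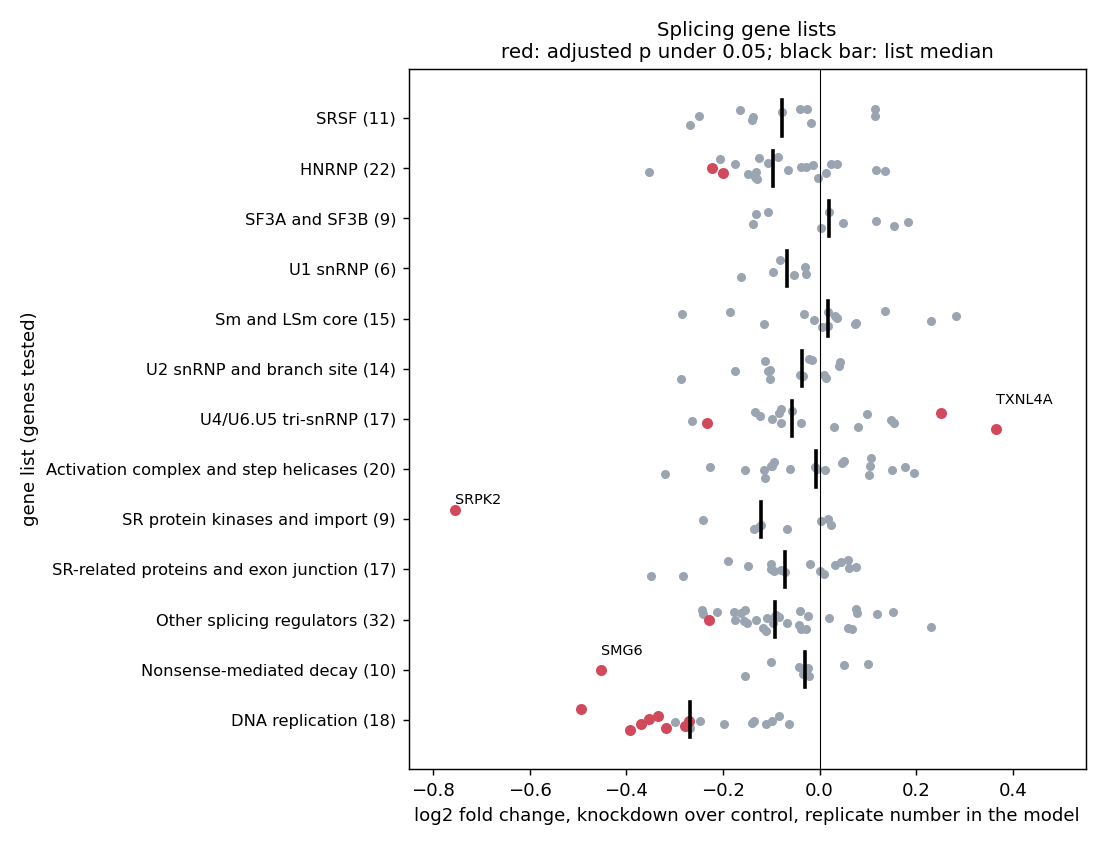
Log2 fold change, knockdown over control, with the replicate number in the model, for each tested gene of the SRSF, HNRNP and SF3 families, of 9 wider splicing lists and of DNA replication. Each point is a gene, red where the adjusted p is under 0.05, and black bars are list medians. The splicing medians lie between -0.12 and 0.019 and the DNA replication median at -0.27.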

How the data were processed

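RNA-seq was measured in 3 control and 3 knockdown Mum-2b libraries, all made with the SMARTER mRNA-seq kit per the labels. Per the file headers, the deposited table holds raw counts per gene with identifiers, positions, lengths and biotypes. Per the submitters' processing notes the build was hg38. The aligner, counter and strand setting were not given in the sources used here. Without strand, reads of overlapping antisense genes cannot be told apart. The authors also deposited FPKM, which equalled the count over gene length and over 1 constant per library, 0.982 to 1.07 times the total count.

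Counts were tested with edgeR 4.0.16 in R 4.3.3 (filterByExpr, which kept 14844 genes, trimmed mean of M-values, quasi-likelihood F-test, robust), with Benjamini-Hochberg adjustment over all genes tested and calls at an adjusted p under 0.05. CPM use scaled library sizes, and an offset of 0.5 was added before log2 of single libraries. The design was fitted without and with the replicate number. Deviations from the group means correlated between libraries of the same number (0.864, 0.696 and 0.685 across genes for numbers 1 to 3). Libraries of different numbers were not compared in this way, and replicate 1 stood apart in both groups. The check therefore shows what replicate 1 shared between groups. It cannot tell whether numbers 2 and 3 are matched or exchanged. The labels do not give the pairing, and pairs here mean libraries of the same number. Common biological variation was 32.6% without and 8.17% with the replicate number, which leaves 2 residual degrees of freedom. Whether replicates were separate cultures is not stated, so p-values measure the spread between these libraries. Intervals are at 95%. DESeq2 1.42.0, limma 3.58.1 (voom, and log2 of FPKM plus 1 or 0.1), other scalings, no filter and left-out libraries were alternatives. The code was tested on simulated data.

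The members and lists were chosen with earlier results of these data known. Named were called members, the 2 of highest FPKM per family, SF3B1 and SRSF2, and per wider list up to 3 called genes in each direction and the 2 most abundant that were not called. Others named were chosen after their values were seen. Promoters came from RefSeq (43 of 48 members matched), and exon overlaps and transcript types from GENCODE release 29.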

Additional observations from a re-analysis of the deposited data

How the results depend on the processing

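The calls depend on the replicate number in the model, and no other choice without it gave a called member, apart from leaving replicate 1 out of both groups. With the replicate block edgeR called 2002 genes (813 rose, 1189 fell), 2 members and 6 wider splicing genes, where it called 0 of each without the block. Without the block DESeq2 called 151 genes, 0 members and 2 wider genes, and edgeR had 954 genes and 0 members at an unadjusted p under 0.05. With the block, RLE size factors gave 2040 genes, 2 members and 6 wider genes. Upper-quartile scaling gave 2184 genes (1198 rose, 986 fell, the opposite balance to the main scaling), 0 members and 5 wider genes. No filter gave 2888, 7 and 16, DESeq2 1346, 0 and 3, limma-voom 2110, 2 and 6, and limma on log2(FPKM + 1) 575, 0 and 0. Leaving out libraries, with or without the block, gave 0 to 4090 genes, 0 to 17 members and 0 to 35 wider genes. The upper ends came from the block without replicate 1. With the block, leaving out replicate 2 gave 932 genes, 0 members and 2 wider genes, and leaving out replicate 3 gave 1760, 3 and 8. Without replicate 1 and without the block the counts were 3758, 11 and 27. The cause was not tested.

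The log2 fold change of NELFCD was negative in all 24 alternatives and passed in 12 of them. It was -1.30 with the block, -1.28 in DESeq2, and with the block -1.31 (RLE), -1.26 (upper quartile), -1.32 (no filter), -1.32 (DESeq2), -1.29 (limma-voom) and -1.17 (log2 FPKM). Leaving out libraries gave -1.45 to -1.03. Without replicate 1 it was -1.15 with and without the block, and with the block it was -1.34 without replicate 2.

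Only the members picked by the naming rule had their direction followed through every setting. Leaving out single libraries reversed HNRNPR among them, and 6 that were not called with the block. It also reversed PRPF4, a called gene of the wider lists. Reversals among the other members were not counted. Leaving out libraries moved HNRNPR from -0.52 to 0.096, SRSF2 from -0.37 to 0.21, HNRNPA1 from -0.12 to 0.078, HNRNPK from -0.26 to 0.084, SF3B4 from -0.32 to 0.25, SF3A1 from -0.13 to 0.21, SF3A2 from -0.038 to 0.11 and PRPF4 from -0.067 to 0.496. Each upper end came without knockdown replicate 1, and the lower end of PRPF4 without control replicate 1. SF3A1 was -0.027 without replicate 3 of both groups, and with the block -0.021 without replicate 2 and -0.046 without replicate 3. SF3A2 was -0.014 without replicate 2 and -0.024 without replicate 3 of both groups, and with the block -0.022 and -0.032. The members' median without the block moved from -0.068 to 0.14 without knockdown replicate 1 and to -0.21 without control replicate 1. On log2 FPKM, SF3A1 was -0.015 (pseudocount 1) and -0.016 (pseudocount 0.1), and with the block -0.0067 (RLE), -0.012 (no filter), -0.0069 (DESeq2) and -0.015 (log2 FPKM). SF3A2 was -0.00023 and -0.00040 on log2 FPKM, and -0.00023 with the block. HNRNPA1 was 0.019 with the block and upper-quartile scaling. Summed levels kept within 1 SD of the libraries under RLE and in each left-out library, an SD that replicate 1 widens. The direction of the sums was not kept. Without knockdown replicate 1 the log2 difference turned from -0.10 to 0.092 for SR genes and from -0.070 to 0.13 for hnRNP genes. For SF3B it turned from -0.036 to 0.081. The SF3A difference turned from 0.041 to -0.12 without control replicate 1. Depth limits little here, as tested members had at least 105 counts in every library.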

Other observations

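Gene counts pool the annotated transcripts of a gene. The median number was 9 for tested SR, 11 for hnRNP, 8 for SF3A and 7 for SF3B genes. Over tested protein-coding genes it was 8. All 11 tested SR genes have a GENCODE transcript of the nonsense-mediated decay type, as do 13 of 22 hnRNP genes, 1 of 3 SF3A and 2 of 6 SF3B genes. Over 12160 tested protein-coding genes the share is 43.4%, beside 100% of SR, 59.1% of hnRNP and 33.3% of SF3A and of SF3B genes. SRSF7 has 6 such transcripts among 12, and HNRNPU has 9 among 31. HNRNPH1 has 50 annotated transcripts, 16 of them with a retained intron, while HNRNPA0 and SF3B5 have 1 transcript each. Gene counts do not show which of these transcripts were present.

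The count table also holds 128 rows with the same name starts that are not listed as protein-coding, of which 54 had a count and 10 were tested. They summed to 40.3 to 47.0 CPM per library, and 74 of them are named as pseudogenes of HNRNPA1, which summed to 15.3 to 17.7 CPM. In edgeR with the replicate number 0 of the 10 tested were called, beside 13.5% of all genes. The smallest adjusted p in that test was 0.36 (HNRNPCP1), and in replicates 2 and 3 alone the smallest was 0.30. The row HNRNPA1P48, named as a pseudogene but listed as protein-coding, was at 12.2 to 16.4 CPM, and HNRNPA1L2 at 6.63 to 8.60 CPM. How the authors divided reads among HNRNPA1 and its copies is not given in the sources used here.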
